A study of Mus musculus with 8 samples.

Results

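The genes described here are 9 of the 17921 genes measured in 8 mouse lung grafts, namely Mcpt8, Cpa3, Ms4a2, Fcer1a, Gata2, Hdc, Cd200r3, Il4 and Il6. They are a listed set of genes of mast cells and basophils, chosen by name and by no cutoff on a value, though with earlier results of these data known. They were followed over the 11 cell type labels deposited for 20778 cells. Co-detection among them was counted in the 85 cells labelled mast cell. Each graft was an orthotopic left lung in 1 male recipient, taken 1 month after transplantation and dissociated to single cells, and each mouse gave 1 library. In the B6→B6 group (5 mice) both donor and recipient were C57BL/6 (B6), and these grafts served as the non-rejecting control. In the HLA→B6 group (3 mice) the donor carried an HLA-A2.1 transgene on the C57BL/6 background, the recipient was B6, and the grafts developed bronchiolitis obliterans syndrome (BOS), a form of chronic rejection. No mouse of either group received immunosuppression. Donor and recipient cells of a graft cannot be told apart here, so a cell described below may have come from either.

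Mast cells and basophils are granulocytic cells that carry the high-affinity receptor for IgE. Crosslinking of that receptor releases histamine and lipid mediators and starts transcription of cytokines. Mast cells mature in tissue under the receptor tyrosine kinase Kit and store tissue-type proteases, whereas basophils circulate, respond to IL-3, lack Kit and, in mice, carry the proteases Mcpt8 and Prss34. Fcer1a encodes the IgE-binding alpha chain of the receptor and Ms4a2 its beta chain. Cpa3 encodes carboxypeptidase A3, a granule protease of both cell types, and Hdc encodes histidine decarboxylase, which makes histamine. Cd200r3 encodes an activating receptor of the CD200R family. Gata2 encodes a transcription factor needed by both lineages and also by endothelium. Il4 and Il6 encode cytokines, of which interleukin 4 is a product of basophils, mast cells and type 2 T cells.

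The authors counted unique molecular identifiers (UMIs), each of which marks 1 captured transcript, from the 3′ end of transcripts. A level below is a gene's UMIs per 1000000 UMIs (CPM), after summing over the cells of a mouse. CPM of 3′ counts is not scaled to transcript length, so levels were compared between samples and cell types, and genes were compared with each other by the number of cells in which they were found. Total UMIs per mouse ran from 1669076 to 12445769, and the cells labelled mast cell gave 9497 to 39050 UMIs per mouse. In these sums 1 UMI was worth 25.6 CPM (HLA→B6 1) to 105 CPM (HLA→B6 2), and intervals given for shares of cells (exact Clopper-Pearson, 95%) cover counting error only. Libraries of B6→B6 1, 2 and 3 and HLA→B6 2 were linked by shared cell barcodes (at least 3% of the smaller library's barcodes), and 3 of the 85 cells had a barcode also seen in a different mouse and less than 5 times the UMIs of the cell found there. These were left out in an alternative. No barcode was held by cells labelled mast cell of more than 1 mouse.

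The members lie on 9 chromosomes of GRCm38 and all are annotated as protein-coding. Mcpt8 spans chr14:56082166-56085273, Cpa3 chr3:20215620-20242181, Ms4a2 chr19:11615523-11623719, Fcer1a chr1:173221284-173227214, Hdc chr2:126593667-126619299 and Il4 chr11:53602982-53618669, all on the minus strand. Cd200r3 spans chr16:44943678-44981380, Gata2 chr6:88193891-88207032 and Il6 chr5:30013114-30019981, on the plus strand. Promoter windows (the 250 bases before each RefSeq transcription start, GRCm38.p6) were found for 9 of 9 members, as 11 windows, and were searched on both strands for the GATA forms AGATAA as well as AGATAG, and TGATAA as well as TGATAG, since Gata2 is a member. At least 1 form was present in 7 of the 11 windows, against 26.5% of 32851 windows of all genes searched alike. Ms4a2 and Cd200r3 held 3 matches each, a number reached by 1.35% of all windows. The windows of Cpa3, Ms4a2, Fcer1a and Cd200r3 are shown as examples that hold a match, from genes with most of their UMIs in cells labelled mast cell, with each match in capitals and adjoining matches run together. They are read 5′ to 3′ on the minus strand for Cpa3 (chr3:20242182-20242431), Ms4a2 (chr19:11623720-11623969) and Fcer1a (chr1:173227230-173227479) and on the plus strand for Cd200r3 (chr16:44943428-44943677).
Cpa3: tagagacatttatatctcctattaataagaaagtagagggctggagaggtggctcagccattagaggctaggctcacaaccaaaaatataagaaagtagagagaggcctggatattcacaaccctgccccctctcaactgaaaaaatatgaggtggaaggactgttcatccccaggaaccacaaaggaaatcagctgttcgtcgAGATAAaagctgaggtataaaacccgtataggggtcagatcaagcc
Ms4a2: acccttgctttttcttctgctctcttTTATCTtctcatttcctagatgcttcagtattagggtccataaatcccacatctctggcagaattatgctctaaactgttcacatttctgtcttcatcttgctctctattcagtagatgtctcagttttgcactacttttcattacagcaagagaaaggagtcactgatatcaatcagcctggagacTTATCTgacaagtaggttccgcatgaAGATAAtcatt
Fcer1a: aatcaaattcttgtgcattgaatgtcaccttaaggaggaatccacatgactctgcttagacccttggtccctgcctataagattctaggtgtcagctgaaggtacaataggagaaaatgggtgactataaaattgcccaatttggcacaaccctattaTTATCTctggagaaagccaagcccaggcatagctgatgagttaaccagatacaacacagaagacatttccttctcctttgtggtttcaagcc
Cd200r3: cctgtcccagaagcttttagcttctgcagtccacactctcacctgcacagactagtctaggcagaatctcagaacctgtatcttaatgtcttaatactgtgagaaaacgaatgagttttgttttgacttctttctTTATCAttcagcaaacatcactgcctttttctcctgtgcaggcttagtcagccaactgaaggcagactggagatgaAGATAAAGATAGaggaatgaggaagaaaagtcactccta
Counted back from the start, the match of Cpa3 was at position -46, those of Ms4a2 at -224, -37 and -11, that of Fcer1a at -92 and those of Cd200r3 at -115, -39 and -33. Single matches stood in a window of Hdc, Il4 and Il6, and the windows of Gata2 and of Mcpt8, which also had most of its UMIs in cells labelled mast cell, held none of these forms. A match is a string of letters and no measured binding, since no binding was measured in these grafts.

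The 85 cells labelled mast cell were 0.409% of all cells and held 0.324% of all UMIs, yet most UMIs of 7 of the 9 genes lay in them. They held 417 of 428 Mcpt8 UMIs (97.4%), 240 of 244 of Fcer1a (98.4%), 112 of 118 of Ms4a2 (94.9%), 190 of 216 of Cpa3 (88.0%) and 154 of 177 of Cd200r3 (87.0%). The cytokine genes followed, with 131 of 156 Il6 UMIs (84.0%) and 45 of 67 Il4 UMIs (67.2%). Hdc and Gata2 were mainly elsewhere, with 18.8% and 3.87% of their UMIs in these cells. The authors' labels came from clusters built on the expression of all genes, these 9 among them, so the shares describe the label and are not a test of it.

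**Figure D1:**
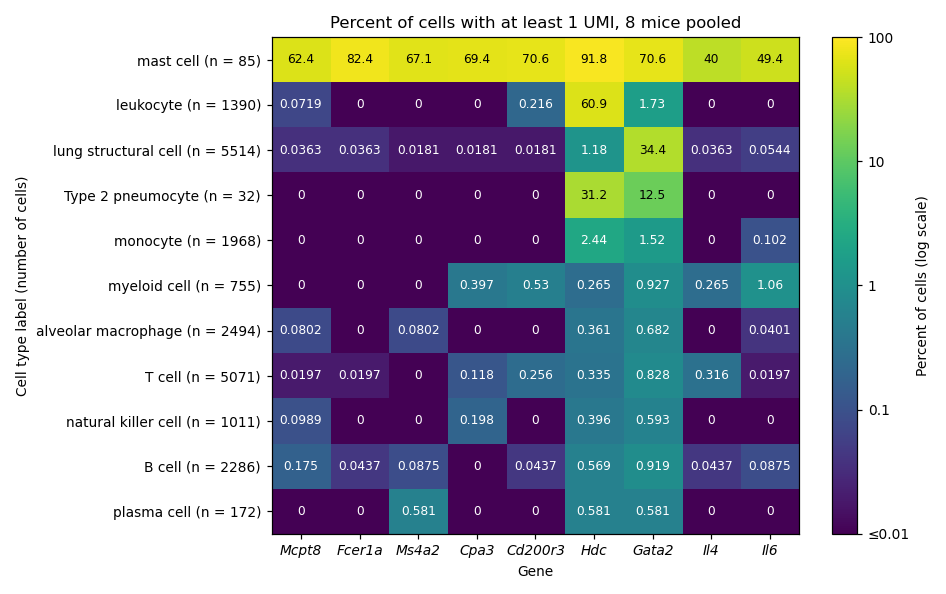
Percent of cells with at least 1 UMI of each member (columns) in each of the 11 cell type labels (rows, with the number of cells), 8 mice pooled, with colour on a log scale. All 9 genes were found in 40.0% to 91.8% of the cells labelled mast cell, and outside them only Hdc (60.9% of cells labelled leukocyte, 31.2% of Type 2 pneumocytes) and Gata2 (34.4% of lung structural cells, 12.5% of Type 2 pneumocytes) exceeded 3% of any label.

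By number of cells, Hdc was found in 78 of the 85 (91.8%, interval 83.8% to 96.6%), Fcer1a in 70 (82.4%), Gata2 and Cd200r3 in 60 each (70.6%), Cpa3 in 59 (69.4%), Ms4a2 in 57 (67.1%) and Mcpt8 in 53 (62.4%). Il6 was found in 42 (49.4%, interval 38.4% to 60.5%) and Il4 in 34 (40.0%, interval 29.5% to 51.2%). Median depth of these cells was 1459 UMIs. B cells, which are of another lineage, were of similar depth (median 1598 UMIs). In them Gata2 was found in 0.919% of cells, Hdc in 0.569%, Mcpt8 in 0.175%, Ms4a2 and Il6 in 0.0875% each, Fcer1a, Il4 and Cd200r3 in 0.0437% each and Cpa3 in 0 of 2286. Every member was found in cells of this label in each of the 8 mice.

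The label was set against fixed lists of genes, whose members need not be particular to 1 cell type. Of 6 basophil genes measured (Mcpt8, Cd200r3, Prss34, Cyp11a1, Itga2, Il3ra), at least 1 was found in 84 of the 85 cells, at least 2 in 69 and at least 3 in 36. The 1 cell without any had a depth of 768 UMIs, near the lower end of the label, whose range was 619 to 4920 UMIs. Cyp11a1, which encodes a steroid-making enzyme and is not a member, was found in 69 cells. Prss34, the second basophil protease, was found in 6 cells, Itga2 in 7 and Il3ra, a subunit of the IL-3 receptor, in 17. Of the mast cell genes measured, Kit was found in 4 cells with 6 UMIs, Cma1 (chymase) in 1 cell with 2 UMIs and Mcpt4 in 0 of 85 cells. By 3 counts of the total, 0 of 85 allows a share of cells with a UMI of up to 3.53%, which limits detection at this depth and not expression. The mast cell list held 10 genes, and the other 7, such as Tpsb2 and Tpsab1, were absent from the genes measured. Their detection in these cells could therefore not be counted. The study states that genes found in fewer than 3 cells were left out. Whether that filter removed these 7 was not tested. Kit was found in 1050 cells of other labels, most of them lung structural cells. Cma1 was found in 567 cells of other labels, and in 50.9% of natural killer cells. Itga2 and Il3ra were found in 344 and 1233 cells of other labels. The 3 mast cell genes measured were thus at or near 0 in cells that carry that label. Of the 6 basophil genes, Cyp11a1, Cd200r3 and Mcpt8 were found in most of these cells, whereas Prss34 and Itga2 were nearly as rare as Kit. The name cells labelled mast cell, used throughout, is that of the deposited label and does not rest on these genes.

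**Figure D2:**
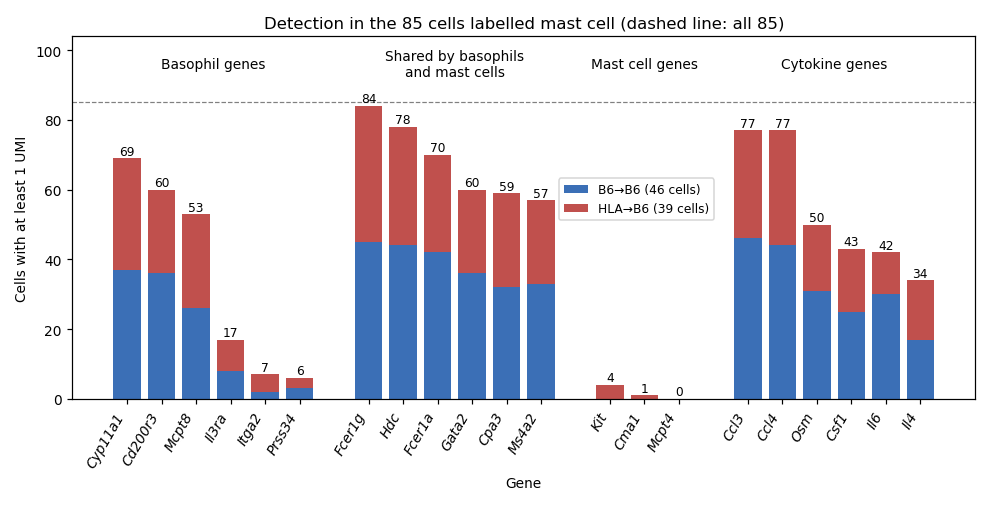
Number of the 85 cells labelled mast cell with at least 1 UMI of each gene, stacked by group (46 cells of B6→B6 in blue, 39 of HLA→B6 in red), with the dashed line at 85. Basophil genes reached 69 cells (Cyp11a1) and the shared genes 84 (Fcer1g), whereas Kit, Cma1 and Mcpt4 were found in 4, 1 and 0 cells.

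Lists of other cell types were sparse. Of 4 natural killer cell genes 0 were found in any of the 85 cells, and at least 2 genes of a list were found in 1 cell for T cells, 0 for B cells and macrophages, and 4 each for neutrophils, endothelium and platelets. The summed level of the 4 neutrophil genes ran from 0 to 244 CPM in the 5 B6→B6 mice and from 0 to 24429 CPM in the 3 HLA→B6 mice. The highest value was that of HLA→B6 2, where 231 of 232 neutrophil UMIs were in 1 cell of 1795 UMIs, which also held 4 members. The platelet list ran from 182 to 1164 CPM in B6→B6 and from 0 to 148 CPM in HLA→B6, with 31 of its 49 UMIs from Itga2b, found in 26 cells, and the endothelial list from 0 to 1504 CPM and from 105 to 461 CPM. Results without the 14 cells that held at least 2 genes of another class are given beside the levels they change. Only mice with at least 5 cells left entered those fits. HLA→B6 2 had 5 cells, 1 of them with at least 2 neutrophil genes, and so dropped out. Loss of cells and loss of a mouse cannot be told apart there. Eosinophil genes were found in 13 cells, Ccr3 in 10 of them, and Prg2 in 0 of 85. Of 4 genes listed for type 2 innate lymphoid cells, Il7r was found in 13 cells, Rora in 3 and Gata3 and Arg1 in 0 of 85, and 2 cells held at least 2 of the 4.

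Co-detection of the members themselves was high. Of 6 lineage members (Mcpt8, Cpa3, Ms4a2, Fcer1a, Hdc and Cd200r3, leaving aside the cytokines and Gata2), at least 2 were found in 84 of the 85 cells, at least 3 in 77 and all 6 in 23, with a median of 4 of 6. All 9 members were found together in 4 cells, and the median was 6 of 9. Outside the label at least 2 of the 6 were found in 5 of 20693 cells and at least 3 in 0. These 5 cells were 2 T cells, 2 cells labelled leukocyte and 1 lung structural cell, each with Hdc beside Cd200r3 or Cpa3 and none with Mcpt8, Fcer1a or Ms4a2. The label therefore held nearly all cells with several of these genes, 84 of 89.

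Mcpt8, which in mice marks basophils, was found in 53 cells and not in 32. Cells with Mcpt8 had a median depth of 1528 UMIs and those without 1312.5 UMIs. Of the 32 cells without Mcpt8, 31 held another basophil gene, 27 held Cyp11a1, 24 held Fcer1a, 19 held Cd200r3 and 0 held Kit, Cma1 or Mcpt4. Of the 53 cells with Mcpt8, 42 held Cyp11a1 and 46 held Fcer1a. The 4 cells with a mast cell gene all held a basophil gene as well, and all 4 came from HLA→B6 grafts (1, 1 and 2 cells in mice 1, 2 and 3) against 0 of 46 cells in B6→B6.

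**Figure D3:**
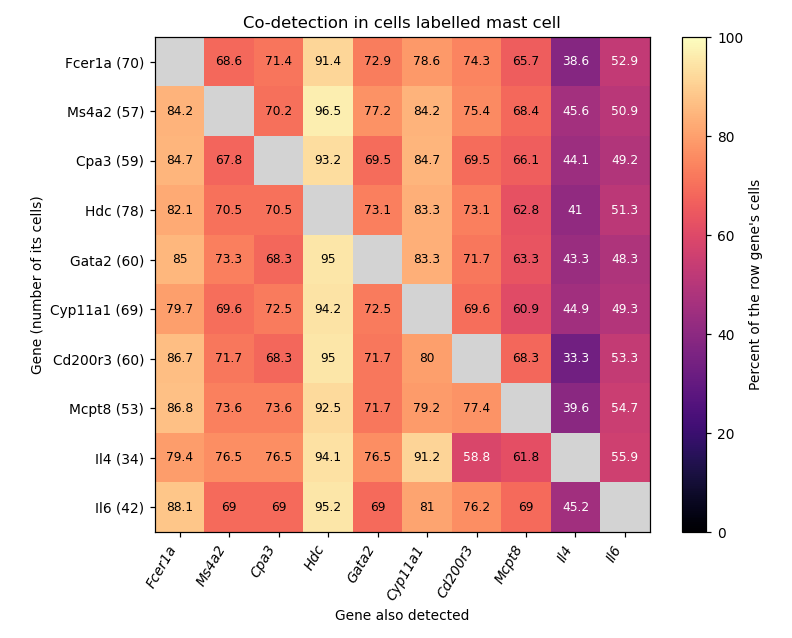
Co-detection in the 85 cells labelled mast cell. Each square gives the percent of the cells with the row gene (number in parentheses) that also held the column gene. Hdc was found in 91.4% to 96.5% of the cells of every other gene shown, whereas Il4 was found in 33.3% to 45.6%.

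Some of these cells stood apart by how much of a gene they held. In 1 cell of HLA→B6 1 (1907 UMIs) 3 Kit UMIs stood beside 36 of Mcpt8, 36 of Cpa3 and 11 of Fcer1a, with 0 of Hdc and Gata2. In 1 cell of B6→B6 5 (2564 UMIs) 34 of the 47 Prss34 UMIs of the label stood beside 41 of Mcpt8, 19 of Fcer1a and 14 of Cd200r3. The cell of HLA→B6 3 with the most Mcpt8 held 72 UMIs and 1 of Kit. Mcpt8 was the most unevenly spread member, with 47.0% of its 417 UMIs in 5 cells and more than 50% in 6. Cpa3 had 37.4% and Il6 38.9% of their UMIs in 5 cells, and Ms4a2, the most even, had 19.6%. A level of Mcpt8 in a mouse thus rested on few cells, and the median among cells with it was 3 UMIs.

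At least 1 of Il4 and Il6 was found in 57 of the 85 cells and both in 19, beside 16.8 cells for genes unrelated to each other. Of the 42 Il6 cells 88.1% held Fcer1a, and of the 34 Il4 cells 79.4% did. Of the other genes of the effector cytokine list, Ccl3 and Ccl4, which encode chemokines, were each found in 77 cells and together in 71, whereas the chemokine gene Cxcl2 was found in 2. Csf1 was found in 43 cells and Osm (oncostatin M) in 50, whereas Tnf was found in 1 and Areg in 0 of 85.

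Members of the IgE receptor pathway were seen to different extents. Fcer1g, the signalling gamma chain, was found in 84 cells and is shared with many myeloid cells (7207 cells of other labels). The adaptor genes Lat2 and Lat were found in 56 and 28 cells, while the kinase genes Lyn, Btk, Syk and Fyn were found in 11, 9, 6 and 3. For histamine and lipid mediators, Alox5ap, whose product serves leukotriene synthesis, was found in 81 cells, Alox5 in 17, Slc18a2, which loads histamine into granules, in 11, and Hnmt, which degrades histamine, in 0 of 85. Among receptors, Csf2rb, the beta chain shared by IL-3, IL-5 and GM-CSF receptors, was found in 45 cells, Csf2rb2 in 29, Il18r1 in 26, Crlf2 (TSLP receptor) in 24 and Il1rl1 (IL-33 receptor) in 12. Among transcription factors, Runx1 was found in 27 cells, Cebpa in 26, Gata1 in 5 and Mitf, a factor of mast cells, in 0 of 85.

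Levels in cells labelled mast cell were then compared between the groups, by edgeR's quasi-likelihood test on UMI sums per mouse, with Benjamini-Hochberg adjustment over all genes tested. Of 253 genes that passed the filter on low counts, 0 were called at an adjusted p under 0.05 (0% called), 9 had an unadjusted p under 0.05 (3.56%), and DESeq2 called 1, Ccl3. Of the 9 members 8 passed the filter, Il4 did not, and 0 were called. Their log2 differences (HLA→B6 minus B6→B6) were below 0 for 5 and above 0 for 3, with a median of -0.48 beside -0.0086 over the 253 genes. Of the 39 HLA→B6 cells 29 came from mouse 1, and mice 2 and 3 gave 5 each. The CPM values below carry no further scaling, whereas the log2 differences include edgeR's TMM scaling.

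Il6 was the member whose groups did not overlap in level. Its level was 996, 1859, 1818, 1067 and 896 CPM in B6→B6 mice 1 to 5 and 179, 526 and 742 CPM in HLA→B6 mice 1 to 3. All 3 HLA→B6 mice were thus below all 5 B6→B6 mice, as held for 5 of the 253 genes (1.98%). Overlap was judged on CPM without TMM scaling, so it can differ from the log2 differences. The log2 difference was -1.51 (SE 0.52, unadjusted p = 0.016), and it did not pass adjustment by edgeR (adjusted p = 0.81). By cells, Il6 was found in 30 of 46 cells of B6→B6 and 12 of 39 of HLA→B6. By mouse these shares overlapped between the groups. They were 71.4%, 66.7%, 75.0%, 44.4% and 66.7% in B6→B6 mice 1 to 5 and 20.7%, 40.0% and 80.0% in HLA→B6 mice 1 to 3. Levels of the groups did not overlap when the cell with the most Il6 was left out in each mouse, at 568 to 1422 CPM against 130 to 459 CPM. In HLA→B6 2 and 3 that cell was 1 of 5 and held 4 of 5 and 5 of 10 Il6 UMIs. Leaving it out took a larger part of the cells from these mice than from any other, so the check was uneven. Without HLA→B6 1, which had the lowest level, the log2 difference was -0.84. It was -2.66 without the 14 cells that held genes of another class, a fit that also lost HLA→B6 2. With cells that share a barcode left out the log2 difference was -1.50. Each cell was also thinned to 1000 UMIs, a depth that 45 of 46 cells of B6→B6 and 31 of 39 of HLA→B6 had. Il6 was then found in 54.9% ± 11.7 of cells (SD, n = 5) in the B6→B6 mice against 30.7% ± 18.1 (SD, n = 3) in the HLA→B6 mice. These shares overlapped as well, with HLA→B6 3 at 46.5% and B6→B6 4 at 35.9%. The difference had p = 0.0714 by an exact two-sided permutation test over mice, in which the smallest possible p is 0.0357.

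Mcpt8 differed in the other direction. It stood at 747, 1750, 2666, 1407 and 3665 CPM in B6→B6 mice 1 to 5 and at 2535, 2001 and 10393 CPM in HLA→B6 mice 1 to 3. The groups overlapped, and the highest value was that of HLA→B6 3, the mouse with the cell of 72 UMIs. The log2 difference was 1.36 (SE 0.51, unadjusted p = 0.0237, adjusted p = 0.857 by edgeR). Without HLA→B6 3 it was 0.47. Without the 14 cells that held genes of another class, a fit that also lost HLA→B6 2, it was 0.50. Mcpt8 was found in 26 of 46 and 27 of 39 cells, and after thinning the share was 46.7% ± 13.5 (SD, n = 5) in the B6→B6 mice against 72.9% ± 15.3 (SD, n = 3) in the HLA→B6 mice (p = 0.107, exact permutation test).

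**Figure D4:**
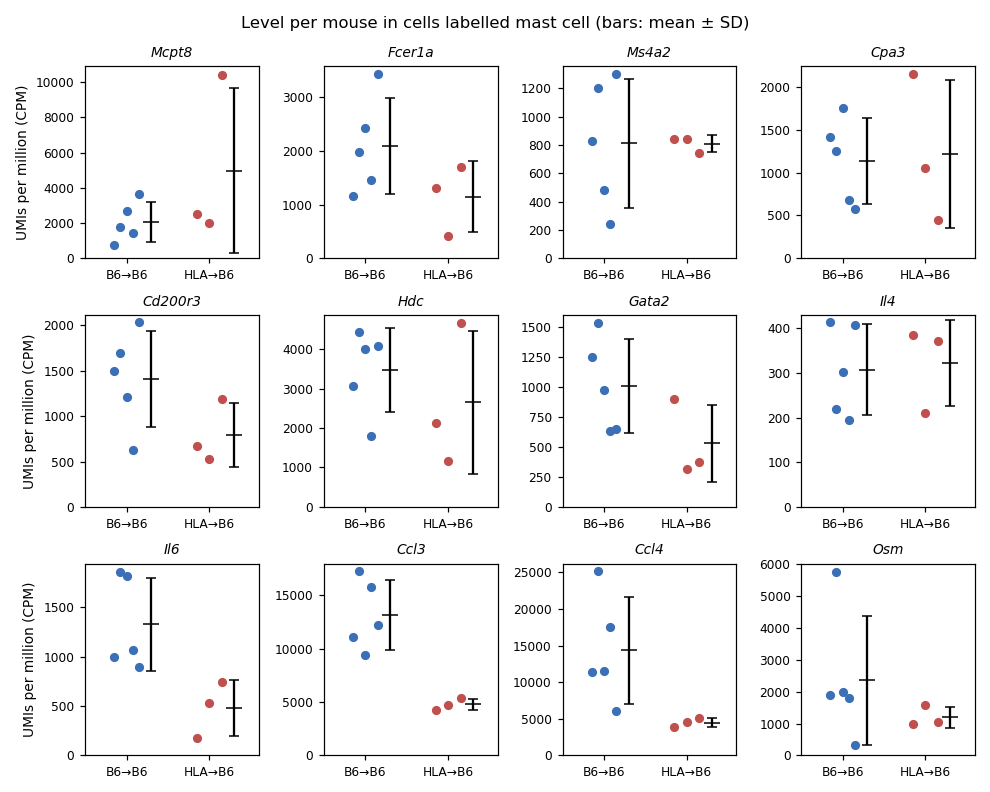
Level per mouse (points, CPM) in cells labelled mast cell for the 9 members and for Ccl3, Ccl4 and Osm, with B6→B6 in blue (5 mice) and HLA→B6 in red (3 mice), in order of mouse number, and the mean ± SD as bars. Il6, Ccl3 and Ccl4 are the panels in which all HLA→B6 mice lie below all B6→B6 mice, and in that of Mcpt8 1 HLA→B6 mouse reaches 10393 CPM.

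The receptor genes overlapped between the groups. Fcer1a was at 1162, 1969, 2424, 1455 and 3421 CPM in B6→B6 and at 1306, 421 and 1707 CPM in HLA→B6. Its log2 difference was -0.71 (SE 0.38) and its adjusted p 0.993 by edgeR. Ms4a2 was at 830, 1203, 485, 243 and 1303 CPM in B6→B6 and at 845, 842 and 742 CPM in HLA→B6, so that the means, 813 and 810 CPM, were close while the spread within B6→B6 was wide. Cd200r3 was at 1494, 1695, 1212, 631 and 2036 CPM against 666, 526 and 1188 CPM, with all 3 HLA→B6 mice below 4 of the 5 B6→B6 mice and a log2 difference of -0.70 (SE 0.40).

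Granule, enzyme and transcription factor genes gave the same picture of overlap. Cpa3 was at 1411, 1258, 1757, 679 and 570 CPM in B6→B6 and 2151, 1053 and 445 CPM in HLA→B6, and the HLA→B6 mice held both the highest and the lowest value. Hdc was at 3071, 4429, 3999, 1795 and 4073 CPM against 2125, 1158 and 4677 CPM, again with HLA→B6 mice at both ends. Gata2 was at 1245, 1531, 969, 631 and 652 CPM against 896, 316 and 371 CPM, with a log2 difference of -0.67 (SE 0.45). Gata2 was found in 36 of 46 and 24 of 39 cells, and after thinning in 60.7% ± 13.1 (SD, n = 5) and 41.3% ± 14.0 (SD, n = 3) of cells (p = 0.0714, exact permutation test). Il4, at 415, 219, 303, 194 and 407 CPM against 384, 211 and 371 CPM, differed by less than the spread within either group. Adjusted p by edgeR was 0.993 for each of Cpa3, Ms4a2, Fcer1a, Gata2, Hdc and Cd200r3.

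Among the gene lists, that of effector cytokines had the median furthest from 0. Of its 10 genes 4 passed the filter (Ccl3, Ccl4, Il6 and Osm), 0 were called by edgeR and 3 had an unadjusted p under 0.05, with a median log2 difference of -1.40 beside -0.0086 over all genes tested. Ccl3 was at 11122, 17334, 9391, 15764 and 12218 CPM in B6→B6 and at 4277, 4738 and 5345 CPM in HLA→B6. All HLA→B6 mice were below all B6→B6 mice, and the difference was -1.29 on the log2 scale (SE 0.28, adjusted p = 0.241 by edgeR and 0.017 by DESeq2). Over the alternatives run that kept at least 2 mice in each group, the adjusted p of Ccl3 ran from 0.017 to 0.997. Ccl4 was at 11454, 25153, 11572, 17608 and 6028 CPM against 3841, 4528 and 5122 CPM, again without overlap (log2 difference -1.52, SE 0.45, adjusted p = 0.81 by edgeR). Together both genes made up 2.89% of the label's UMIs in B6→B6 and 0.88% in HLA→B6. Without the top cell of each mouse neither gene overlapped between groups, with Ccl3 at 7985 to 17025 CPM against 2878 to 3946 CPM. That check was uneven between mice, as for Il6. Osm overlapped, at 326 to 5741 CPM against 973 to 1579 CPM. The other genes without overlap, both lower in HLA→B6, were Alox5ap and Hcst, a signalling adaptor gene that is on no list here and was named after its values were seen, with log2 differences of -0.0086 and -0.24. Other genes at an unadjusted p under 0.05, likewise named after the fact, were Anxa1 and Anp32a, lower in HLA→B6, and Actb, Rpl41 and Rps19, higher.

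The remaining lists held few tested genes and 0 calls. Of the basophil list Mcpt8, Cyp11a1 and Cd200r3 were tested, with a median log2 difference of 0.62. Of the IgE receptor pathway Fcer1a, Ms4a2, Fcer1g and Lat2 were tested (median -0.18), and of histamine and lipid mediators Hdc and Alox5ap (median -0.15). Of the lineage's receptors Csf2rb was tested (-0.10), and of transcription factors Gata2. None of the mast cell genes passed the filter.

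Levels over all cells of a graft were compared next. Summed over all cells, fewer cells of a type and less RNA per cell cannot be told apart. The share of cells labelled mast cell was 0.739%, 0.889%, 0.493%, 0.220% and 0.691% in B6→B6 and 0.443%, 0.152% and 0.401% in HLA→B6. Cells with at least 2 of the 6 lineage members, a count made without the label, were 0.623% ± 0.252 of cells (SD, n = 5) in the B6→B6 mice against 0.347% ± 0.146 (SD, n = 3) in the HLA→B6 mice (p = 0.143, exact permutation test). Of 11584 genes tested on whole-graft sums 0 were called (0% called), 815 had an unadjusted p under 0.05 (7.04%), and DESeq2 called 119. Of the 8 members tested 7 were lower in HLA→B6 and Mcpt8 was higher, 0 were called, and their median log2 difference was -0.74 beside -0.012 over all genes. The groups did not overlap for 0 of the 8 and for 739 genes in all (6.38%). The 4 macrophage genes measured were lower in HLA→B6 as well, all with an unadjusted p under 0.05 and with a median log2 difference of -1.77, and their part in these sums was not tested. Il6 had the largest difference among the members, at 9.59, 12.2, 7.34, 3.58 and 5.07 CPM in B6→B6 and 0.964, 0.653 and 4.90 CPM in HLA→B6. Of the HLA→B6 mice 2 were below all B6→B6 mice and the other lay between B6→B6 4 and 5 (log2 difference -1.94, SE 0.73, unadjusted p = 0.0259, adjusted p = 0.56 by edgeR). The direction of Mcpt8 rested on HLA→B6 3, with 53.6 CPM against 8.28 and 2.07 CPM in the other HLA→B6 mice, and without that mouse the log2 difference was -0.95 in place of 1.15. Shares of all cells with a UMI gave p values from 0.107 (Fcer1a) to 0.857 (Gata2) over the 9 members by exact permutation tests. Of the IgE receptor pathway 15 of 15 genes were tested on whole-graft sums, with 0 called, 1 at an unadjusted p under 0.05 and a median log2 difference of 0.045, and of the effector cytokines 8 of 10, with 0 called, 2 at an unadjusted p under 0.05 and a median of -0.67.

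Hdc was found mostly in cells labelled leukocyte. These cells held 70.8% of all Hdc UMIs, and 846 of 1390 of them (60.9%, interval 58.2% to 63.4%) held at least 1 at a median depth of 678.5 UMIs. Neutrophil genes were present in nearly all of them, as 1387 of 1390 held at least 2 of S100a8, S100a9, Retnlg and Csf3r. Hdc stood at 1645 CPM ± 306 (SD) in the 7 mice with at least 10 such cells, against 3166 CPM ± 1331 (SD, n = 8) in cells labelled mast cell, and the ranges, 1340 to 2050 CPM and 1158 to 4677 CPM, overlapped. In B6→B6 mice 1 to 5 it was 1935, 1362, 1613, 2050 and 1340 CPM, and in HLA→B6 mice 1 and 2 it was 1344 and 1868 CPM. Of 913 genes tested in these cells 0 were called (0% called, 47 or 5.15% at an unadjusted p under 0.05, 2 called by DESeq2), and the log2 difference of Hdc was -0.048 (SE 0.26, adjusted p = 1.0 by edgeR).

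In epithelium Hdc was found in 10 of 32 Type 2 pneumocytes (31.2%) at 108 CPM, and in 10 of 68 cells of structural cluster 8, named Krt8+ epithelial cells by the authors, at 318 CPM with 37 UMIs. Thinned to 1000 UMIs, the share in Type 2 pneumocytes, whose median depth was 6600 UMIs, was 9.13%. In all other labels at most 2.44% of cells held Hdc (monocytes).

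**Figure D5:**
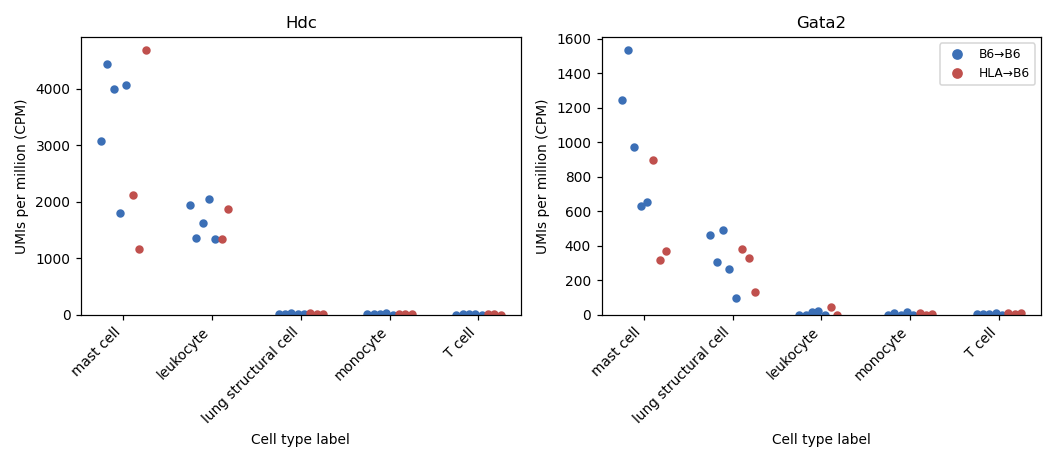
Level per mouse (points, CPM) of Hdc and Gata2 in 5 cell type labels each, with B6→B6 in blue and HLA→B6 in red, for mice with at least 5 cells labelled mast cell or 10 cells of another label. Hdc stood at 1340 to 2050 CPM in cells labelled leukocyte and Gata2 at 95.1 to 488 CPM in lung structural cells, while Hdc reached at most 32.6 CPM and Gata2 16.3 CPM in monocytes and T cells.

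Gata2 was found mostly in lung structural cells, which held 90.6% of its UMIs. It was found in 1898 of 5514 of these cells (34.4%, interval 33.2% to 35.7%). Of all 5514 cells 82.3% held at least 2 of 4 endothelial genes. By mouse its level there was 463, 304, 488, 266 and 95.1 CPM in B6→B6 and 381, 326 and 131 CPM in HLA→B6, and the groups overlapped. Of 8109 genes tested in structural cells 49 were called (0.604% called), 676 had an unadjusted p under 0.05 (8.34%), and Gata2 was in neither set, with a log2 difference of -0.21 (SE 0.20, adjusted p = 0.902 by edgeR). Among the authors' structural clusters it was highest in cluster 0, MHC II+ endothelial cells, at 580 CPM ± 169 (SD, n = 8), followed by cluster 2 at 450 ± 129 (SD, n = 8) and cluster 1 at 343 ± 63.4 (SD, n = 8). These clusters came from the same mice and their differences were not tested, and their ranges over mice, 345 to 776, 302 to 656 and 243 to 433 CPM, overlapped. Lower levels were found in cluster 5, Vcam1+ endothelial cells (218 ± 77.5, SD, n = 7), and cluster 3, fibroblasts and smooth muscle cells (112 ± 89.2, SD, n = 6). Clusters 1 and 2 carry the name epithelial cells, yet Pecam1, an endothelial gene, was found in 63.6% and 90.5% of their cells. In cells labelled mast cell Gata2 stood at 826 CPM ± 420 (SD, n = 8), a range of 316 to 1531 CPM that overlaps that of cluster 0, 345 to 776 CPM. Kit, absent from nearly all cells labelled mast cell, was found in 460 of 2364 cells of cluster 0 and 282 of 1347 of cluster 1.

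Few cells outside these labels held the other members. The 22 Il4 UMIs outside the label lay in 21 cells, of which 16 were T cells, spread over all 8 mice. Il6 was found in 17 cells outside the label, 8 of them labelled myeloid cell, from 6 mice. Cd200r3 was found in 13 T cells with 1 UMI each. Cpa3 was found in 6 T cells with 15 UMIs in all, up to 6 in 1 cell, and in 3 cells labelled myeloid cell of 1 mouse with up to 5 UMIs. Mcpt8 was found in 11 cells outside the label with 1 UMI each, Ms4a2 in 6 and Fcer1a in 4, all at 1 UMI per cell. At 1 UMI per cell a transcript of that cell and a stray molecule cannot be told apart.

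Receptor genes for the cytokines were found in other labels. Il4ra was found in 20.5% of alveolar macrophages, 15.2% of lung structural cells and 14.8% of B cells, and in 1 of the 85 cells labelled mast cell. Il6ra, which binds interleukin 6, was found in 25.7% of monocytes and 23.0% of alveolar macrophages. Il6st, its signalling partner, was found in 31.2% of the 32 Type 2 pneumocytes, 15.5% of alveolar macrophages and 14.4% of lung structural cells. Il6ra and Il6st were both at 0 of the 85 cells labelled mast cell, with the limit on detection given for Mcpt4.

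Likeness of pattern was measured as Pearson's r of log2(CPM + 1) over 69 sums per mouse and label with at least 10 cells, among 12577 genes found in at least 50 cells. These sums share libraries and depth, and 3 of them were of cells labelled mast cell, so r describes a contrast between that label and the rest. The ranking left the members themselves out. Among the other genes Cyp11a1 was the nearest to 7 members, from r = 0.869 for Il6 to r = 0.958 for Ms4a2, and Csrp3 was the second for all 7. Next came Npl for 6 of them and B630019A10Rik for Il4. Gata2 was nearest to Gpihbp1 (r = 0.796), Adgrg3 (0.773) and Tal1 (0.764), and Hdc to Cxcr2 (0.889), Map1lc3b (0.836) and Ifitm1 (0.83). The 7 members whose nearest gene was Cyp11a1 had r from 0.818 to 0.968 with each other, and Gata2 and Hdc had r from 0.397 to 0.546 with them.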

How the data were processed

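The authors captured cells of dissociated grafts by droplets (10x Genomics, 10000 cells loaded), counted UMIs with Cell Ranger on mm10 and analysed them with Seurat, per the labels and the study's methods, which also state that barcodes under 200 UMIs and genes in fewer than 3 cells were left out and that free RNA was removed with SoupX. Removal of free RNA can lower stray UMIs of any gene. The deposited values are whole UMI counts (17921 genes, 20778 cells) with a table of labels, joined here by cell name. The mouse of a cell was taken from the sample column of that table, since the cell names number the HLA→B6 mice differently. 0 columns were left unused. Doublets were handled by leaving out, as an alternative, cells with at least 2 markers of another class. Counts were summed per mouse and label (at least 5 cells labelled mast cell, 10 of others) and tested with edgeR 4.0.16 (R 4.3.3, TMM, filterByExpr with a minimum count of 10, quasi-likelihood F test, adjusted p under 0.05). Other labels were tested only where a member passed the filter, Gata2 in structural cells and Hdc in cells labelled leukocyte. Shares were compared by exact permutation over 56 splits of the mice in Python 3.11.15 (scipy 1.17.1), after thinning to 1000 UMIs by expectation where stated. The fits were tested on simulated sums. The members and lists were chosen with earlier results of these data known, and each tested p measures spread between mice. Named genes are the members, genes of fixed lists where a result turns on them, and the 3 nearest genes by r. Alternatives were DESeq2 1.42.0, no filter, a replicate block, other minimums of cells, depths and thinning, an exact Mann-Whitney test, leaving out cells that share a barcode or carry other markers, and each mouse left out. The linked libraries as a block, and the top cell left out, were added after the data were seen. Gene positions are from the GENCODE annotation of GRCm38 and promoter windows from RefSeq.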

Additional observations from a re-analysis of the deposited data

How the results depend on the processing

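The depth limits these comparisons, since the cells labelled mast cell gave 9497 to 39050 UMIs per mouse and 29 of 39 HLA→B6 cells came from 1 mouse. With 5 mice against 3 the smallest possible exact p is 0.0357. With 1 mouse left out it is above 0.05, so those alternatives of a share test could not have passed. Of 242 alternatives of a share test, these among them, 0 passed 0.05 (smallest p 0.0571 by an exact test), which says little about a difference. In all 642 alternatives were run, 382 of them with 1 mouse left out, and 588 were scored as the same. For a test this meant the same direction and the same side of the threshold. For counts of genes called and for co-detection shares it meant a value within a set margin. No member or share was called in the main tests, so an unchanged side of the threshold says little. Shared replicate numbers did not mark a known pairing, so the fits with the number as a block stand here only. Same-numbered mice correlated at 0.31, 0.40 and -0.15 for numbers 1 to 3. The highest values of these HLA→B6 mice with a B6→B6 mouse of another number were 0.46, 0.12 and 0.29. Number 2 was thus the exception, and its 2 libraries shared 160 barcodes, 11.9% of those of the smaller.

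Counts of genes called moved as follows. In whole-graft sums 0 became 119 with DESeq2, 7 with the replicate block and 92 with the linked libraries as a block. In cells labelled mast cell 0 became 1 with DESeq2, 9 with no filter on low counts, 2 with the replicate block (adjusted p of Ccl4 0.0228) and 22 with at least 10 cells per mouse. That last fit held 2 B6→B6 mice and 1 HLA→B6 mouse, which was assumed to vary like the others. Its log2 difference for Il6 was -3.25, with no spread between HLA→B6 mice behind it. In structural cells 49 became 94 with DESeq2, 130 with no filter, 10 with the replicate block and 10 (without B6→B6 4) to 71 (without HLA→B6 3) with 1 mouse left out. In cells labelled leukocyte 0 became 2 with DESeq2, 26 with no filter, 1 with the replicate block and 0 to 8 (without B6→B6 4) with 1 mouse left out. The cause of these shifts was not tested.

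The share of cells with a basophil gene, 98.8%, became 96.6% over all cells with at least 2 lineage members whatever their label and 95.8% after thinning. Mcpt8 and Cd200r3 are on both the lineage and the basophil list, so the 96.6% is not independent of how its cells were picked. Without thinning the difference in the share of cells with Ms4a2 was -7.68 percentage points in place of 2.43. The log2 difference of Cpa3 became -0.25 with the replicate block. That of Ms4a2 became -0.17 without cells that held markers of another class, a fit that also lost HLA→B6 2.

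With 1 mouse left out in turn, directions turned for values that no test had called. In whole-graft sums log2 differences ran from -0.95 to 1.75 for Mcpt8, from -0.75 to 0.055 for Gata2 and from -1.32 to 0.16 for Hdc, and shares of all cells differed by -0.186 to 0.0338 percentage points for Mcpt8, by -2.97 to 0.496 for Gata2 and by -2.94 to 0.923 for Hdc. In cells labelled mast cell log2 differences ran from -0.34 to 0.78 for Cpa3 and from -0.077 to 0.40 for Ms4a2, and thinned shares differed by -24.6 to 1.83 percentage points for Cpa3 and by -5.96 to 6.74 for Ms4a2. In cells labelled leukocyte the log2 difference of Hdc ran from -0.20 to 0.13. A fit in cells labelled leukocyte without HLA→B6 3 was not run, since that mouse had too few such cells to enter.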
